A study of Mus musculus with 20 samples.

Results

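A set of 10 genes of efferocytosis and scavenging was followed in the epididymal white adipose tissue (eWAT) of mice, chosen by name: the receptors Mertk and Axl, the bridging ligands Gas6, Pros1 and Mfge8, and the scavenger receptors Msr1, Marco, Scara5, Olr1 and Cd68. Of the 10 genes, 9 were among the 14776 genes of the deposited table, and Olr1, which encodes the lectin-like receptor for oxidised LDL, was not analysed here. All mice were male C57BL/6J and were 6 weeks old at the start. The NC group (6 mice by the labels) ate maintenance chow throughout. The HFD group (7 mice) and the SZ-A group (7 mice) ate a high fat diet (60% of energy as fat) for 14 weeks and stayed on it for 6 more weeks, during which the HFD mice were given saline and the SZ-A mice 400 mg/kg of Ramulus Mori (Sangzhi) alkaloids each day by gavage. SZ-A is a preparation of mulberry twig whose main components are polyhydroxylated alkaloids. The labels name no transgene or deletion in any mouse, and no group received SZ-A on chow, so the action of SZ-A without the diet could not be compared.

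Efferocytosis is the uptake of dying cells. A dying cell shows phosphatidylserine on its surface. Gas6 and protein S, the product of Pros1, bind this lipid and the receptor tyrosine kinases MERTK and AXL at the same time, and MFG-E8, the product of Mfge8, links it to integrins, so that the phagocyte can grip and engulf the cell. Scavenger receptors take up modified lipoproteins and other ligands: MSR1, MARCO and SCARA5 belong to class A, and CD68 is a glycoprotein of late endosomes and lysosomes that is widely used to mark macrophages. In the adipose tissue of obese mice, macrophages gather around dead adipocytes and take up their lipid, and fibroblasts and endothelial cells of the tissue also express several of these genes, AXL, Gas6 and Scara5 among them.

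The values are FPKM, fragments scaled to exon length and library size, so levels of different genes can be set side by side per length. By reads recovered from the FPKM values, between 13567667 and 19388628 reads per mouse fell on the listed genes, and no gene was listed at 0 in any mouse. Reads per mouse ran from 6268 to 153362 for Mfge8 and from 151 to 9267 for Axl, and were fewest for Msr1 (from 12), Scara5 (from 61) and Marco (1 to 118). Nothing in the labels says that the mice of a group were housed or processed separately, so p-values measure the spread between these 20 samples. The tissue label was checked against marker genes. Adipoq, the adipokine adiponectin, ranged from 222 to 1158 FPKM in HFD, from 838 to 2668 in SZ-A and from 859 to 2278 in 5 of the 6 NC mice. NC replicate 6 stood apart, with 26.6 FPKM of Adipoq and 3.59 of Plin1, a protein of the lipid droplet surface, against 118 to 347 of Plin1 in the other NC mice. Its median correlation with the other NC mice over all genes was 0.765, against 0.881 to 0.956 for those mice. It was also lowest of all 20 mice in the macrophage, fibroblast and endothelial marker lists. The main results in which it takes part are therefore also given without it. Mitochondrial genes took between 3.301% and 8.344% of the reads of NC mice, and less in every HFD mouse (1.672% to 2.916%). For SZ-A mice the share lay between 1.668% and 11.638%, with replicate 5 highest. Its part in the results was not tested.

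The positions below are those of GENCODE release M21 on GRCm38. Mertk lies at chr2:128698956-128802894 on the plus strand and Axl at chr7:25757273-25788705 on the minus strand. The ligand genes are Gas6 at chr8:13465374-13494490 (minus), Pros1 at chr16:62854307-62929346 (plus) and Mfge8 at chr7:79133768-79149060 (minus). The scavenger receptor genes are Msr1 at chr8:39581685-39642673 (minus), Marco at chr1:120474538-120505024 (minus), Scara5 at chr14:65666403-65764826 (plus), Cd68 at chr11:69664213-69666153 (minus) and Olr1 at chr6:129485244-129507165 (minus). All 10 are annotated as protein-coding.

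Promoter windows, from 250 bases before to 50 bases after the annotated start, were taken from RefSeq on GRCm38.p6 and were found for 8 of the 10 genes, without Msr1 and Scara5. They were searched on both strands for GAGGAA, the purine-rich core bound by the ETS factor PU.1 of myeloid cells, and for TGANTCA, the AP-1 element. The first motif occurred in 5 of the 8 windows and in 28.3% of all 32851 windows of the reference, and the second in 2 of the 8 and in 7.81% of all. The windows of 3 genes are shown, chosen by their values in the data. Cd68 had the largest log2 fold change of the 9 genes in HFD against NC. Axl was lower in every SZ-A mouse than in any HFD mouse. Both of these genes rose in HFD and fell with SZ-A. Mfge8 was at nearly the same mean level in HFD and SZ-A. Capitals mark matches to either motif on either strand, and GAGGAA on the opposite strand reads TTCCTC. The windows lie at chr11:69666121-69666420, chr7:25788684-25788983 and chr7:79149011-79149310, all on the minus strand and printed 5′ to 3′.
Cd68: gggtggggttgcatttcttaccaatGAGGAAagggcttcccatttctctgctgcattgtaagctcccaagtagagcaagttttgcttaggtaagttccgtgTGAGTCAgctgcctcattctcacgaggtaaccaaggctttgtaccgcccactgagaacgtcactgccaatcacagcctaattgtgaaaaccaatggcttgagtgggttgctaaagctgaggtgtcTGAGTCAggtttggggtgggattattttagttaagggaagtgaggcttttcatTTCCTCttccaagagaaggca
Axl: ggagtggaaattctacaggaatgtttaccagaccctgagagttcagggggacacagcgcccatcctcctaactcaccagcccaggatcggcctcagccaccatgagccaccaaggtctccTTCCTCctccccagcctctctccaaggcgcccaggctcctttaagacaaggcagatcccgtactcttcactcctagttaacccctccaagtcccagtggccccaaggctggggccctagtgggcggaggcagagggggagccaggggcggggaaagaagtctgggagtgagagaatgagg
Mfge8: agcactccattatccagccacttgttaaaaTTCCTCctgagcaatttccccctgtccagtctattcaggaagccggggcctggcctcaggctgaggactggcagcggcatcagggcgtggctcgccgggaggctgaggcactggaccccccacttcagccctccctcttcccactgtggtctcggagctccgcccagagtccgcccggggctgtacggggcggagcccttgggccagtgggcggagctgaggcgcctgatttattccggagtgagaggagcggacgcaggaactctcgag
The Cd68 window held 2 matches to GAGGAA and 2 to TGANTCA, which did not overlap. Axl and Mfge8 had 1 match to GAGGAA each, Marco had 1, and Olr1 had 1 match to each motif. The windows of Mertk, Gas6 and Pros1 had no match to either. A match states only that these letters are present in the window.

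The first comparison asks how the diet changed these genes. The genes were chosen with earlier results of these data known. Counts of them beside shares of all genes, here and below, are therefore descriptions and not tests of the set. HFD raised 7 of the 9 genes against NC at an adjusted p under 0.05 (limma, Benjamini-Hochberg over all genes tested) and lowered none of them; of all 14706 genes tested, 21.0% were higher and 20.1% lower by the same rule. A log2 fold change above 1.5 was also reached by 5 of them, Cd68, Msr1, Axl, Pros1 and Scara5, against 5.43% of all genes that were higher by both limits. The median log2 fold change of the 9 genes was 1.59 and that of all genes tested was -0.04. In 5 genes, Cd68, Msr1, Axl, Gas6 and Pros1, every HFD mouse lay above every NC mouse, as it did for 12.7% of all genes. Without NC replicate 6, again 7 of the 9 genes were called higher, against 22.6% of all genes: Mfge8 entered and Mertk left. By both limits 4 were then higher, Cd68, Msr1, Axl and Mfge8.

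**Figure D1:**
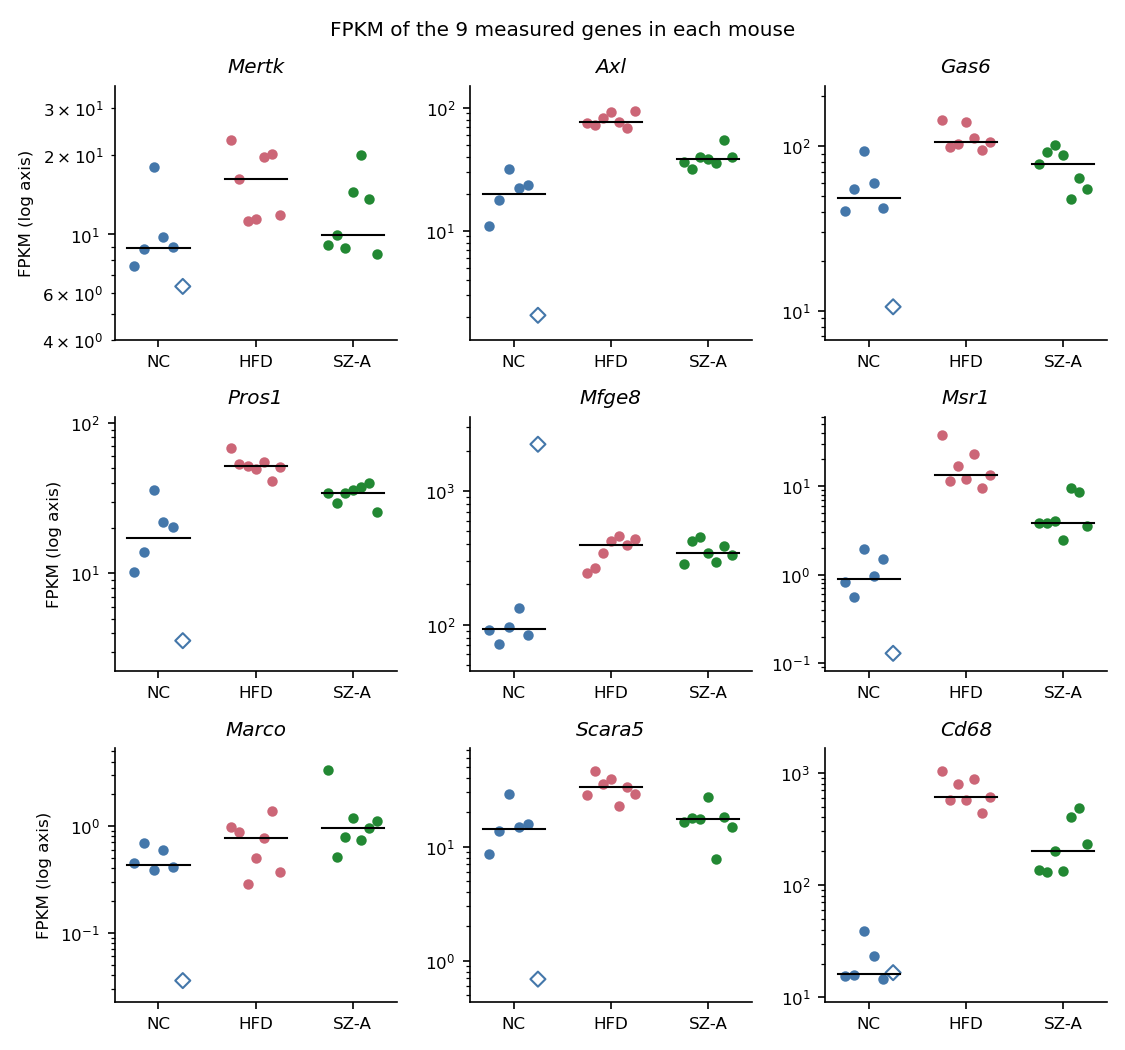
FPKM (log axis) of the 9 measured genes in each of the 20 mice, 1 panel per gene; filled points are single mice, the open diamond is NC replicate 6 and the bar is the group median. Cd68, Msr1, Axl, Gas6 and Pros1 had no overlap between NC and HFD, and NC replicate 6 holds the highest Mfge8 value of all mice, 2242 FPKM.

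Among the receptors that bind through ligands, Axl changed most. Axl FPKM ranged from 2.06 through a median of 20.03 to 32.0 in NC, from 68.6 through 76.8 to 94.0 in HFD and from 31.7 through 38.2 to 54.4 in SZ-A. The lowest HFD mouse was thus above the highest mouse of either other group. The log2 fold change of HFD against NC was 2.39 ± 0.43 (SE, adjusted p = 0.000649, exact permutation p = 0.000583, the smallest that 6 against 7 mice allow), and without NC replicate 6 it was 1.93 (adjusted p = 7.21e-06). Mertk, the related receptor best known from macrophages and retinal pigment epithelium, ranged from 6.36 through 8.89 to 17.98 FPKM in NC and from 11.2 through 16.2 to 22.8 in HFD. Its groups overlapped, since NC replicate 3 at 17.98 lay above 4 HFD mice. Mertk was higher by 0.67 ± 0.23 on the log2 scale (SE, adjusted p = 0.0310, exact permutation p = 0.0210). That call was lost when any of NC replicates 1, 2 and 6 or HFD replicates 1, 2, 5 and 6 was left out, with a log2 fold change of 0.57 and an adjusted p of 0.0550 without NC replicate 6. The ratio of Axl to Mertk FPKM, a difference in level between the 2 receptors of the same mouse, ran from 1.45 to 2.64 in NC without replicate 6, from 3.31 to 8.07 in HFD and from 1.80 to 4.68 in SZ-A. It was 0.324 in NC replicate 6. Every HFD mouse had a higher ratio than every NC mouse, and the ratios of HFD and SZ-A overlapped.

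The bridging ligands Gas6 and Pros1 rose together with Axl. Gas6 ranged from 10.6 through 48.2 to 93.1 FPKM in NC and from 94.1 through 106 to 145 in HFD, so that the groups only just did not meet. Its log2 fold change was 1.39 ± 0.37 (SE, adjusted p = 0.00841), and 1.01 without NC replicate 6 (adjusted p = 0.00124). Pros1 ranged from 3.58 through 17.1 to 35.7 FPKM in NC and from 41.0 through 51.8 to 68.3 in HFD. Pros1 was higher by 1.78 ± 0.37 on the log2 scale (SE, adjusted p = 0.00175); it was 1.43 without NC replicate 6 (adjusted p = 0.000336) and then below the limit of 1.5. For both ligands the exact permutation p of HFD against NC was 0.000583, the smallest possible.

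Mfge8, the ligand that pairs with integrins, was, like Mertk, a gene for which a single mouse could decide the call. It ranged from 71.4 to 133 FPKM in NC replicates 1 to 5, was 2242 in NC replicate 6, and ranged from 241 through 392 to 457 in HFD. That value rests on 153362 reads, and the highest value in HFD or SZ-A was 457. With all mice the log2 fold change of HFD against NC was 1.17 ± 0.66 (SE, adjusted p = 0.175, exact permutation p = 0.144). Without NC replicate 6 it was 1.93 ± 0.21 (SE, adjusted p = 7.70e-06), with every HFD mouse above the 5 NC mice (exact permutation p = 0.00126, the smallest for 5 against 7). In the same mouse Krt18, Krt19 and Lrrn4, the 3 mesothelial or epithelial markers in the table, had a mean log2(FPKM + 1) of 5.20, within the 3.02 to 5.93 of the other NC mice. Which cells gave this Mfge8 RNA was not tested.

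Cd68 had the largest log2 fold change of the 9 genes in HFD against NC. It ranged from 14.4 through 16.2 to 39.1 FPKM in NC, from 438 through 613 to 1039 in HFD and from 130 through 203 to 491 in SZ-A. The NC mice lay far below both other groups, NC replicate 6 included at 16.6 FPKM. The log2 fold change of HFD against NC was 5.05 ± 0.26 (SE, adjusted p = 2.00e-08), or 33.7 times on the mean FPKM, and it was 5.0 without NC replicate 6. Msr1, the class A scavenger receptor of macrophages, ranged from 0.130 through 0.894 to 1.93 FPKM in NC and from 9.58 through 13.2 to 37.7 in HFD. Its log2 fold change was 3.17 ± 0.30 (SE, adjusted p = 2.84e-06), and 3.02 without NC replicate 6. The scale of log2(FPKM + 1) understates changes of low genes, and with a pseudocount of 0.01 the value for Msr1 was 4.40. HFD replicate 1 was highest of all mice in both genes, and it was also the mouse with the highest macrophage marker score.

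The other class A receptors behaved differently from Msr1. Scara5, a ferritin receptor known from stromal cells, ranged from 0.687 through 14.3 to 29.1 FPKM in NC and from 22.7 through 33.3 to 45.7 in HFD. The groups overlapped, as NC replicate 3 at 29.1 was above 3 HFD mice. The log2 fold change was 1.59 ± 0.50 (SE, adjusted p = 0.0218), and 1.05 without NC replicate 6 (adjusted p = 0.00336), below the limit of 1.5. Marco, known from alveolar and marginal zone macrophages, was near the lower end of the measurement in every group. It ranged from 0.0356 through 0.430 to 0.694 FPKM in NC, which is 1 to 25 reads per mouse, and from 0.288 through 0.770 to 1.37 in HFD, or 10 to 47 reads. Marco did not pass the test, with a log2 fold change of 0.27 (95% interval -0.05 to 0.59, adjusted p = 0.168), and 0.18 without NC replicate 6 (adjusted p = 0.318).

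**Figure D2:**
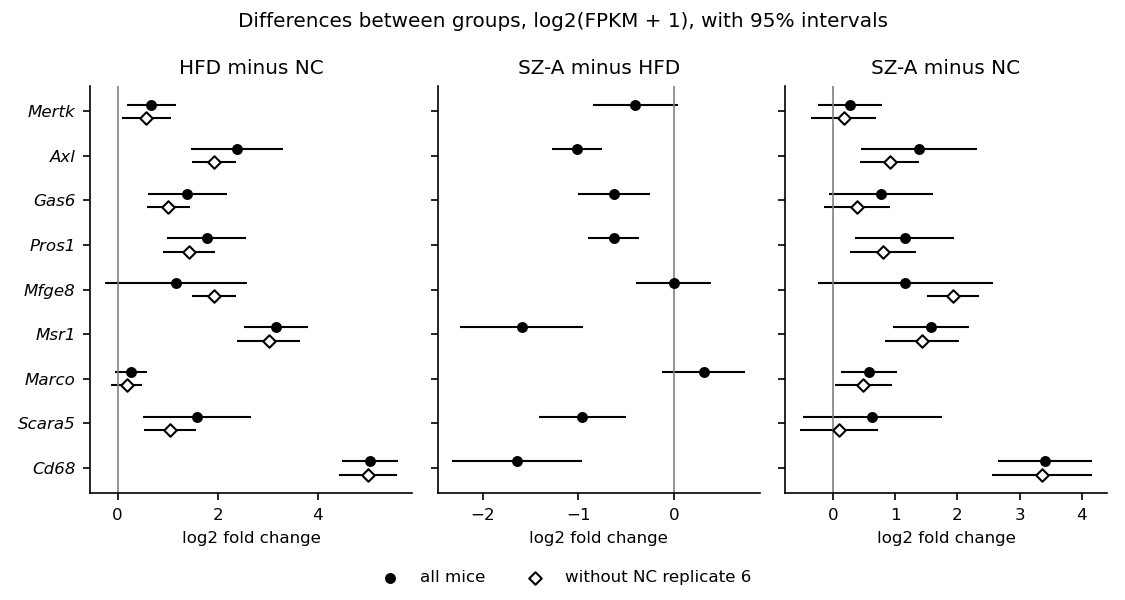
Log2 fold change of the 9 genes on log2(FPKM + 1) in the 3 comparisons, with 95% intervals from limma; filled circles use all mice and open diamonds leave out NC replicate 6. Leaving it out moves Mfge8 from 1.17 to 1.93 in HFD minus NC and lowers the value of Axl from 2.39 to 1.93.

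The second comparison asks which of these genes SZ-A changed in mice that stayed on the high fat diet. SZ-A lowered 6 of the 9 genes against HFD, Cd68, Msr1, Axl, Scara5, Pros1 and Gas6, and raised none; of all 14695 genes tested, 13.3% were lower and 9.47% higher. By both limits 2 were lower, Cd68 and Msr1, against 0.558% of all genes. This count was 1 without HFD replicate 1 or without SZ-A replicate 4, where Msr1 had log2 fold changes of -1.39 and -1.47. In 3 genes, Axl, Pros1 and Msr1, every SZ-A mouse lay below every HFD mouse, against 4.01% of all genes. The median log2 fold change of the 9 genes was -0.63, and that of all genes 0.03. The HFD mice are the same in this and in the first comparison, so a high value in them by chance would give a rise there and a fall here, and the 2 sets of values are not independent. No mouse of the NC group enters this fit.

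Cd68 fell by 1.64 ± 0.32 on the log2 scale (SE, adjusted p = 0.00288), and its mean was 2.85 times lower in SZ-A than in HFD. In 6 of the 7 SZ-A mice Cd68 was below every HFD mouse, and the remaining mouse, replicate 6 at 491 FPKM, was above 1 HFD mouse. Msr1 ranged from 2.46 through 3.88 to 9.41 FPKM in SZ-A, all below the lowest HFD value of 9.58. It fell by 1.59 ± 0.30 (SE, adjusted p = 0.00262, exact permutation p = 0.000583), and its mean was 3.48 times lower. SZ-A replicates 5 and 6 had the highest values of both genes in their group, 9.41 and 8.53 FPKM for Msr1 and 401 and 491 for Cd68, and also the highest macrophage marker scores, 6.61 and 6.23 against 4.98 to 5.39 in the other SZ-A mice.

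Axl fell by 1.01 ± 0.12 on the log2 scale (SE, adjusted p = 0.000304), which was the smallest adjusted p of the 9 genes in this comparison, and its mean of 39.4 ± 7.19 FPKM (SD, n = 7) was about 2.03 times below the 80.1 ± 9.76 of HFD. Mertk ranged from 8.47 through 9.93 to 19.9 FPKM in SZ-A, overlapping with HFD. The difference on the log2 scale was -0.40 (95% interval -0.85 to 0.04, adjusted p = 0.172), which does not show that the levels were alike. Without SZ-A replicate 5, the mouse with 19.9 FPKM, it was -0.53 with an adjusted p of 0.0496.

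Pros1 ranged from 25.4 through 34.4 to 40.1 FPKM in SZ-A, just below the lowest HFD mouse at 41.0. It fell by 0.63 ± 0.12 on the log2 scale (SE, adjusted p = 0.00317). Gas6 ranged from 47.7 through 78.1 to 102 FPKM in SZ-A, with 6 of 7 mice below every HFD mouse, and fell by 0.62 ± 0.18 (SE, adjusted p = 0.0205). Scara5 ranged from 7.77 through 17.6 to 27.4 FPKM in SZ-A, also with 6 of 7 mice below every HFD mouse, and fell by 0.96 ± 0.21 (SE, adjusted p = 0.00590). The lowest values of both Gas6 and Scara5 in SZ-A were those of replicate 5, the mouse with the highest macrophage score of its group. The same mouse had the lowest fibroblast and progenitor marker score of SZ-A, 3.90. Its median correlation with the other SZ-A mice over all genes, 0.895, was also the lowest of that group.

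Mfge8 did not share this fall. It ranged from 286 through 343 to 451 FPKM in SZ-A and from 241 through 392 to 457 in HFD, and the groups overlapped throughout. The log2 fold change of -0.00 had a 95% interval of -0.39 to 0.38 (adjusted p = 0.990), so changes in either direction up to about this size could not be told from 0. Marco ranged from 0.508 through 0.966 to 3.35 FPKM in SZ-A, or 18 to 118 reads, and its log2 fold change was 0.31 (95% interval -0.12 to 0.74, adjusted p = 0.277). The highest value, 3.35 FPKM, came from SZ-A replicate 1, and no other mouse of the 20 was above 1.37.

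The third comparison sets SZ-A mice beside mice that never ate the high fat diet, and shares its mice with both others. Cd68 and Msr1 were higher in SZ-A than in NC, 2 of the 9 genes against 4.15% of all 14718 genes that were higher and 0.455% that were lower. Both passed both limits, as 1.73% of all genes did in the upward direction, and in both every SZ-A mouse lay above every NC mouse, as in 3.22% of all genes. The log2 fold change of Cd68 was 3.40 ± 0.35 (SE, adjusted p = 0.000210), and 3.36 without NC replicate 6. That of Msr1 was 1.58 ± 0.28 (SE, adjusted p = 0.00562), and 2.60 with a pseudocount of 0.01. Msr1 was at 1.43 without NC replicate 6 and at 1.43 and 1.45 without SZ-A replicates 5 and 6, below the limit of 1.5 in each case. Without NC replicate 6, 4 of the 9 genes were called higher, against 4.63% of all genes, since Axl (log2 fold change 0.91, adjusted p = 0.0285) and Mfge8 (1.92, adjusted p = 0.000366) were added. The count was also 4 without NC replicate 3, with Axl at 1.599 and Pros1 at 1.40. Gas6, Scara5, Mertk and Marco passed the test in neither case, with log2 fold changes of 0.77, 0.64, 0.27 and 0.58 over all mice and of 0.39, 0.09, 0.17 and 0.49 without NC replicate 6, and Pros1 was at 1.15 (adjusted p = 0.0974).

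By level per length, the order of the genes in HFD was Cd68 with a mean of 701 FPKM, Mfge8 366, Gas6 114, Axl 80.1, Pros1 52.8, Scara5 33.3, Msr1 17.8, Mertk 16.2 and Marco 0.736. The SDs of the neighbours Msr1 (9.89) and Mertk (4.78) exceeded their difference. In SZ-A, Mfge8 with 360 ± 62.9 FPKM (SD, n = 7) stood first and Cd68 with 246 ± 144 second. The order from Gas6 to Scara5 was the same as in HFD, with Axl (39.4) and Pros1 (33.8) apart by less than the SD of Axl, and Mertk (12.1) then stood above Msr1 (5.10). In the 5 NC mice without replicate 6, Mfge8 led with 94.8 FPKM, Gas6 followed with 57.9, and Cd68 (21.6), Axl (21.4), Pros1 (20.4) and Scara5 (16.4) lay within 1 SD of each other.

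In a piece of tissue, fewer cells of a type and less RNA per cell cannot be told apart, and markers of macrophages moved with these genes. The macrophage score is the mean log2(FPKM + 1) of 12 marker genes, none of which is among the 9. It ranged from 1.77 to 4.23 in NC, from 6.37 to 7.45 in HFD and from 4.98 to 6.61 in SZ-A. All 12 markers rose in HFD against NC, and 11 of 12 fell in SZ-A against HFD, Adgre1 (F4/80) from a mean of 204 to 59.6 FPKM. The fibroblast and progenitor list of 12 genes also moved: its score ranged from 1.93 to 4.60 in NC, from 5.14 to 5.55 in HFD and from 3.90 to 4.81 in SZ-A, with 7 members higher in HFD against NC and 8 lower in SZ-A against HFD. The endothelial score overlapped between all groups. No marker of these lists was at 0. The part of cell composition in each result was not tested directly.

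**Figure D3:**
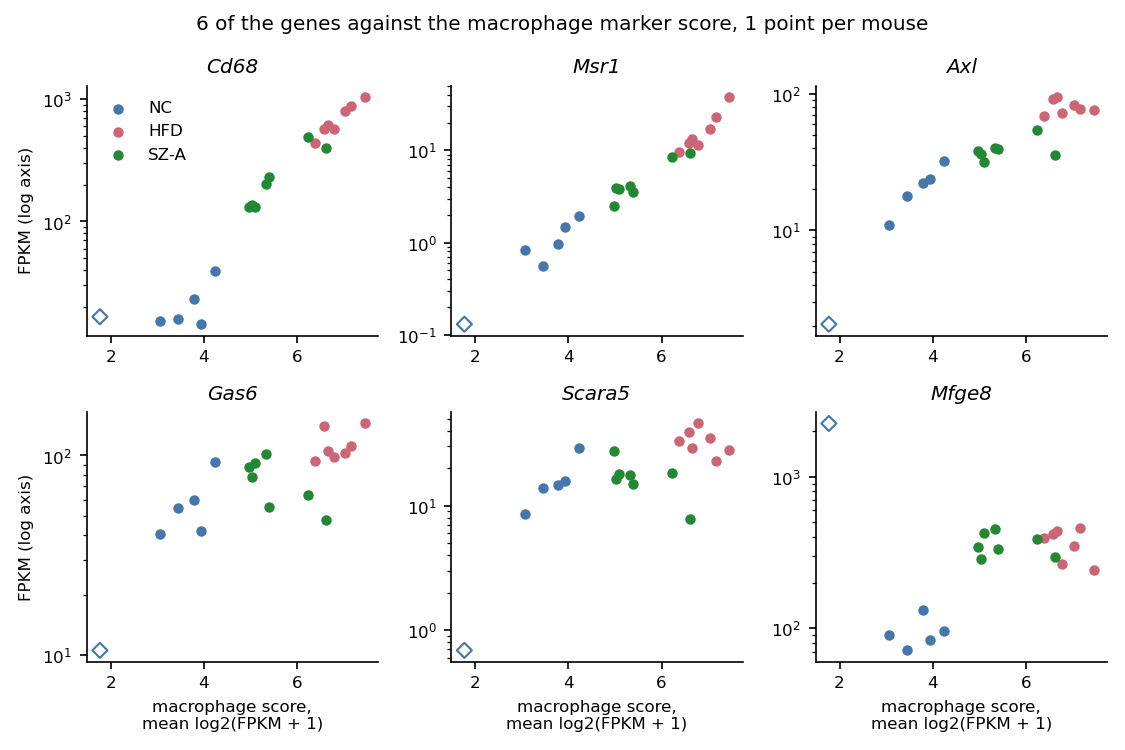
FPKM (log axis) of 6 of the genes against the macrophage marker score, the mean log2(FPKM + 1) of 12 genes, with 1 point per mouse coloured by group and NC replicate 6 as an open diamond. SZ-A replicates 5 and 6, with scores of 6.61 and 6.23, have the highest Cd68 and Msr1 of SZ-A, close to the lowest HFD values, whereas their Scara5 and Gas6 lie below every HFD mouse.

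With the macrophage score as a covariate, 3 of the 6 genes that SZ-A lowered were still called. A difference between the genes in this respect was not tested. Cd68 had a log2 fold change of -0.11 (95% interval -0.58 to 0.36, adjusted p = 0.765) and Msr1 of -0.15 (-0.66 to 0.36, adjusted p = 0.702), against -1.64 and -1.59 without the covariate. Pros1 had -0.29 (adjusted p = 0.262). Axl had -0.88 (95% interval -1.30 to -0.46, adjusted p = 0.0238), Gas6 -0.99 (-1.58 to -0.41, adjusted p = 0.0357) and Scara5 -1.66 (-2.27 to -1.05, adjusted p = 0.0199), against -1.01, -0.62 and -0.96 without the covariate. These 3 of 9 genes remained lower, against 6.48% of all genes in the same fit. Only SZ-A replicate 5 had a score within the range of HFD, with replicate 6 just below it, so the group and the score are largely confounded. Replicate 5 also had the lowest Gas6 and Scara5 of SZ-A, and a fit with the score but without this mouse was not run. With the fibroblast score as a covariate, chosen after seeing the data, 0 of the 9 genes were called by limma, with an unadjusted p under 0.05 in 3; the scores of HFD and SZ-A did not overlap, so the group and that score can hardly be separated. The values in that fit were -1.88 for Cd68, -1.63 for Msr1 and -0.83 for Axl, close to those without a covariate, and -0.17 for Scara5 and 0.15 for Gas6.

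**Figure D4:**
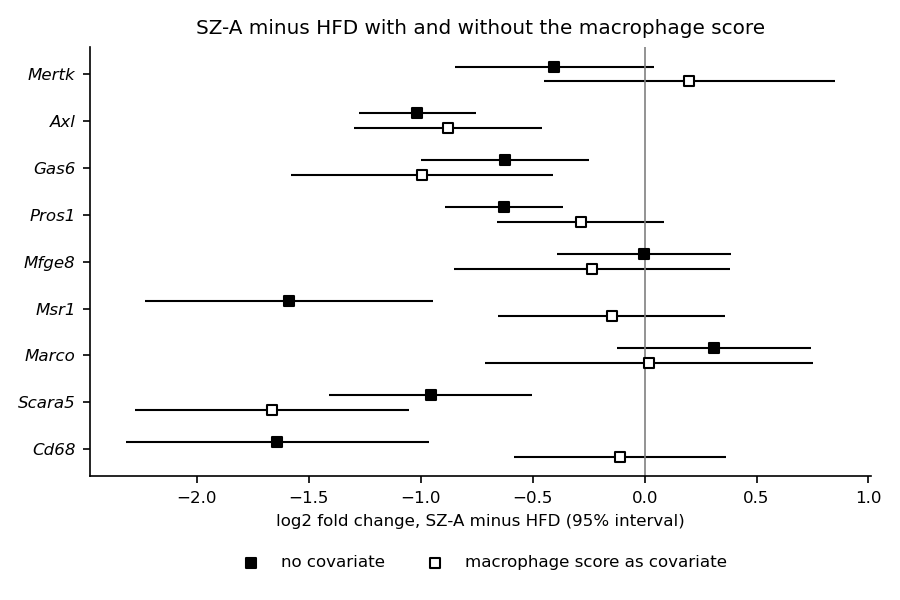
Log2 fold change of SZ-A minus HFD for the 9 genes with 95% intervals from limma, without a covariate (filled) and with the macrophage marker score as a covariate (open). The values of Cd68 and Msr1 move from -1.64 and -1.59 to -0.11 and -0.15, and those of Axl, Gas6 and Scara5 stay below 0.

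For each gene, the 2 genes most like it were found by the correlation of deviations from the group means over the 20 mice, among genes whose mean reached 1 FPKM. These are descriptions, and the mice share group and tissue composition. Axl was most like Rhoj (r = 0.97) and Fstl1 (0.97), Scara5 like Gas1 (0.97) and Ddr2 (0.96), and Gas6 like Bicc1 (0.94) and Lamb1 (0.93). Pros1 was most like Cd93 (0.98) and Sept8 (0.97). Msr1 was most like Nras (0.95) and Tlr13 (0.95), and Cd68 like Efhd2 (0.94) and Hk3 (0.93). Mfge8 was most like Cyb5rl (0.95) and Galnt10 (0.95), and Mertk like Per1 (0.87) and Taf4 (0.84). NC replicate 6 carried part of this. Over the other 19 mice the leading genes were Tmem198b and Rhoj for Axl (0.89 for both), Col6a6 for Scara5 (0.91), Bicc1 for Gas6 (0.85) and Ctnnbip1 for Mfge8 (0.78). Plek for Msr1 (0.96) and Anpep, a myeloid aminopeptidase, for Cd68 (0.97) had correlations no lower than the leading ones over 20 mice. Mertk was then most like Zfp592 (0.88) and Pros1 like Swap70 (0.95).

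The wider pathway was taken from a list of 72 other genes of dead cell clearance and scavenging, of which 67 were in the table. This list too was chosen with earlier results of these data known, so its counts beside shares of all genes are descriptions. Against NC, HFD raised 43 of the 67 and lowered 3, where 21.0% of all genes were higher and 20.1% lower. Against HFD, SZ-A lowered 37 and raised 1, where 13.3% of all genes were lower and 9.47% higher. In SZ-A against NC, 15 were called, each of them higher, where 4.15% of all genes were higher; without NC replicate 6 it was 18. Their median log2 fold changes were 1.003 in HFD against NC and -0.55 in SZ-A against HFD, beside -0.04 and 0.03 over all genes. Both limits with no overlap between groups, in HFD against NC or in SZ-A against HFD, were passed by 27 of the 67, against 6.26% of all genes. These 27 are named next, and the other pathway genes named beside them were chosen after their values were seen. The values below use all mice. Without NC replicate 6, HFD raised 45 and lowered 4, and the 27 were all still called with log2 fold changes that moved by at most 0.555, but Itgb5 (1.24), Colec12 (1.18), Scara3 (1.36) and Cd14 (1.38) were then below the fold limit of 1.5.

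Signals that call phagocytes and mark cells for uptake moved in both directions. P2ry6, a receptor for nucleotides released by dying cells, had a log2 fold change of 3.76 in HFD against NC and fell by 1.46 with SZ-A (adjusted p = 5.79e-07 and 0.00140). Panx1, the channel that releases such nucleotides, rose by 1.62 in HFD (adjusted p = 0.00236) and had -0.83 with SZ-A (adjusted p = 0.0744). Anxa1, a phospholipid-binding protein exposed on dying cells, rose by 2.998 and fell by 0.88 (adjusted p = 2.45e-07 and 0.00392). The inhibitory signals differed: Sirpa, the phagocyte receptor for the do-not-eat-me ligand CD47, rose by 4.16 and fell by 1.49 (adjusted p = 8.72e-07 and 0.00395). Cd47 itself rose by 0.63 in HFD and fell by 0.41 with SZ-A (adjusted p = 0.00219 and 0.0152). Cd24a, another do-not-eat-me molecule that epithelial cells also carry, fell by 3.48 in HFD and rose by 1.71 with SZ-A (adjusted p = 7.31e-05 and 0.0388). The mesothelial and epithelial markers also fell in HFD, in 2 of 3 genes, but 0 of the 3 were called with SZ-A. Their score ranged from 1.26 to 2.68 in HFD and from 0.203 to 4.66 in SZ-A. Its part in the values of Cd24a was not tested.

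Bridging molecules and receptors for dying cells rose in HFD and fell with SZ-A in several genes. C1qa, C1qb and C1qc, which opsonise dying cells, rose by 2.95, 3.73 and 3.45 in HFD and fell by 1.18, 1.46 and 1.45 with SZ-A. Trem2, a lipid receptor of macrophages in obese fat, rose by 5.61 (adjusted p = 5.54e-09) and fell by 1.59 (adjusted p = 0.0137), from a mean of 112 to 46.9 FPKM. Cd300lb rose by 4.82 and fell by 1.59, and Havcr2, the phosphatidylserine receptor TIM-3, rose by 2.46 and fell by 1.38. Lrp1, Stab1 and Itgb5 rose by 2.78, 2.60 and 1.64 and fell by 1.08, 1.09 and 0.61. Of the 13 genes in this receptor group, 9 rose and 1 fell in HFD, and 9 fell with SZ-A. Tyro3, the third receptor of the family of Mertk and Axl, averaged 0.979 ± 1.41 FPKM in NC (SD, n = 6) and 0.612 ± 0.193 in HFD (SD, n = 7). Its log2 fold change of HFD against NC was -0.11 (adjusted p = 0.774) and turned to 0.19 without NC replicate 6 (adjusted p = 0.121), and it did not pass the test in SZ-A against HFD (-0.11, adjusted p = 0.418).

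Of 11 genes of the engulfment machinery, 9 rose in HFD and 6 fell with SZ-A. Dock2 and Rac2, the forms found in blood cells, rose by 3.53 and 3.42 and fell by 1.47 and 1.42, whereas the widely expressed Dock1 and Rac1 rose by 0.47 and 0.67. Elmo2 rose by 1.53 and fell by 0.80. Tgm2, a cross-linking enzyme and coreceptor in uptake, rose by 1.003 in HFD (adjusted p = 0.0117) and had a log2 fold change of 0.00 with SZ-A (adjusted p = 0.999). Of 8 genes of phagosome maturation and digestion, 6 rose and 5 fell. Lipa, the lysosomal acid lipase, rose by 4.14 and fell by 1.58, from a mean of 450 to 155 FPKM. Dnase2a, which digests the DNA of engulfed cells, rose by 1.59 and fell by 0.93, and Ucp2, a mitochondrial carrier, rose by 1.97 and fell by 1.02. The nuclear receptors that sense engulfed lipid differed from these groups. Of Nr1h2, Nr1h3, Pparg, Ppard and Rxra, only Ppard was called in HFD, where it fell (-0.55, adjusted p = 0.0142), and with SZ-A their adjusted p ran from 0.113 to 0.903. Without NC replicate 6, Pparg had -0.86 in HFD against NC (adjusted p = 0.0180).

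**Figure D5:**
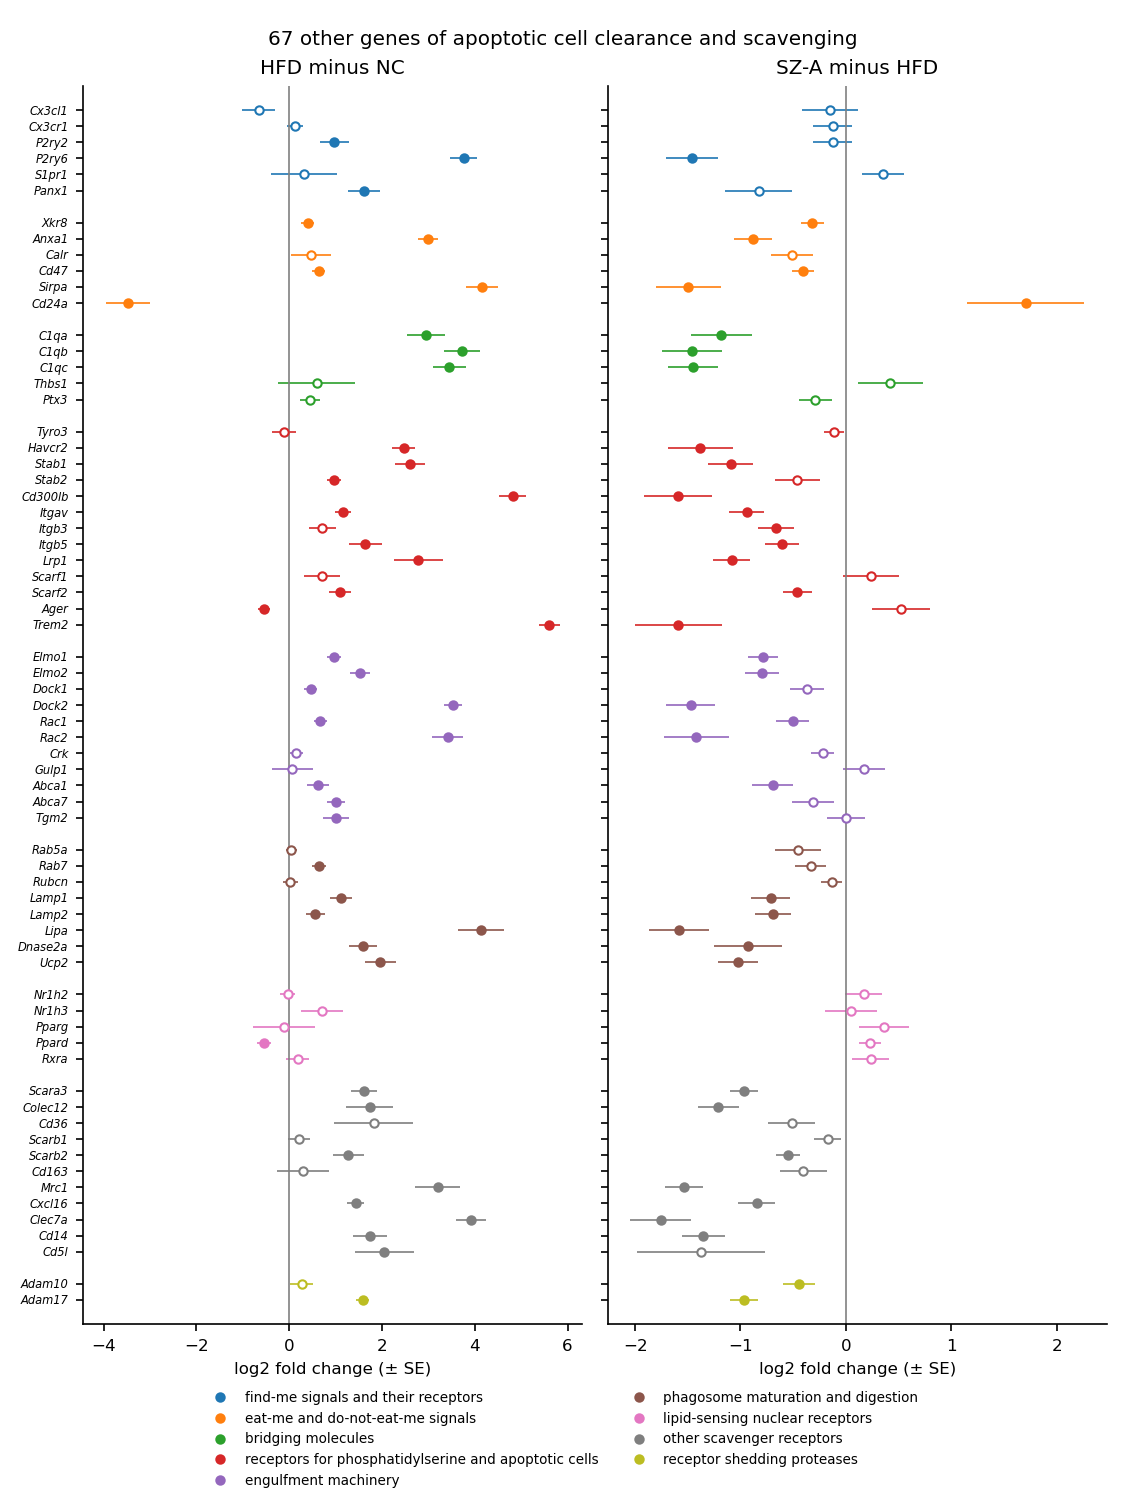
Log2 fold change (± SE, limma) of 67 other genes of dead cell clearance and scavenging in HFD minus NC and SZ-A minus HFD, coloured by role; filled points have an adjusted p under 0.05. In HFD minus NC 43 genes rose and 3 fell, and in SZ-A minus HFD 37 fell and 1, Cd24a, rose.

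Other scavenger receptors were higher in HFD in 8 of 11 cases and lower with SZ-A in 7. Clec7a, the beta-glucan receptor dectin-1, rose by 3.92 and fell by 1.76 (adjusted p = 8.63e-07 and 0.00118). Mrc1, the mannose receptor, rose by 3.20 and fell by 1.54. Cd14 rose by 1.74 and fell by 1.35, and it is also 1 of the 12 macrophage markers. The class A relatives Scara3 and Colec12 rose by 1.61 and 1.74 and fell by 0.97 and 1.21. Cd5l, a secreted macrophage protein, rose by 2.05 (adjusted p = 0.0201) and had -1.38 with SZ-A (adjusted p = 0.111). Adam17, a protease that cleaves MERTK and AXL from the cell surface, rose by 1.58 and fell by 0.97 (adjusted p = 1.56e-06 and 0.000428), while Mertk itself did not pass the test in SZ-A against HFD. With the macrophage score as a covariate, 7 of the 67 genes were lower and 1 higher in SZ-A against HFD, beside 6.48% of all genes that were lower in the same fit. Besides Adam17 (-0.39, adjusted p = 0.0486) these were Scara3 (-1.19, adjusted p = 0.0199), Colec12 (-1.57, adjusted p = 0.0213), Mrc1 (-0.87, adjusted p = 0.0305), Scarb2, Abca1 and Dock1, and the higher one was Ager (1.41, adjusted p = 0.0350).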

How the data were processed

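Poly(A) RNA of eWAT from 20 mice was sequenced as paired reads. HISAT2 was used by the authors for alignment to GRCm38. Their deposited values are FPKM per gene, a unit scaled to gene length and library size. The submitters' processing notes name featureCounts 1.5.0-p3. The annotation and the filter on genes are not given in the sources used here. The labels give 6 NC mice, the paper 7 per group.

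FPKM times exon length (GENCODE M21) gave whole reads within 0.01 for 95.9% to 96.3% of the values under 1000 reads, where a share of 0.95 was required. These recovered reads served for depth and for voom only. The library size implied by the values was below the recovered reads in some mice, as in HFD replicate 1 (15406889 against 17216011). It was above them in others, as in NC replicate 2 (18709385 against 17238652). Whether the values carry a further scaling factor was not tested. Groups were compared in pairs with limma 3.58.1 (R 4.3.3; lmFit, eBayes with trend) on log2(FPKM + 1). Genes averaging under 0.1 FPKM over the mice compared were left out, and p was adjusted by Benjamini-Hochberg over all others. Fold changes on this scale understate those of low genes such as Marco and Msr1. The limits were an adjusted p under 0.05, alone or with a log2 fold change past 1.5 as in the study's methods. Single genes were also tested by exact two-sided permutation of mean log2(FPKM + 1). In simulated data for SZ-A against HFD, 200 of 14690 genes tested carried a log2 difference of 2, and the fit called 195 of them and 15 others. The simulated noise was independent between genes, and the changed genes averaged at least 1 FPKM. The 6 genes called in this comparison fell by 0.62 to 1.64, so these counts do not give the rate of calls for them. Python 3.11.15 (pandas 2.3.3, NumPy 2.4.6, matplotlib 3.10.9) made the tables and plots.

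The 10 genes, the gene lists and the tests were chosen with earlier results of these data known. Named are the 10 genes, pathway genes past both limits without overlap, the 2 genes most like each of the 10, and tissue markers; a few other pathway genes were named after their values were seen. Alternatives tried were a pseudocount of 0.1 or 0.01, keeping every gene, keeping genes averaging 1 FPKM or more, median-ratio scaling, quantile normalization, all 3 groups in a fit, array quality weights, voom, the replicate number as a block, macrophage and epididymis scores as covariates, and leaving out each mouse. A fibroblast score, and all 3 groups without NC replicate 6, were chosen after seeing the data.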

Additional observations from a re-analysis of the deposited data

Results flagged for a closer look

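Single mice were compared with the rest of their group for the 9 genes and the 27 named pathway genes, 108 groups in all, by the gap to the nearest mouse over the range of the group. Of these groups 11 held a mouse that far from the others, and chance flags about 1 in 20 groups. Mfge8 in NC replicate 6 was at 2242 FPKM against 71.4 to 133 in the other NC mice, and Elmo2 in the same mouse was at 12.0 against 3.91 to 6.67. NC replicate 3 held the highest NC values of Mertk (17.98 against 6.36 to 9.81 FPKM) and Cd68 (39.1 against 14.4 to 23.3), and it also had the highest NC macrophage score, 4.23. In SZ-A replicate 6, Axl was at 54.4 FPKM against 31.7 to 40.0 in the other SZ-A mice, Lrp1 at 101.7 against 40.2 to 66.7, and Dock2 at 16.9 against 4.38 to 9.71. In SZ-A replicate 5, Stab1 was at 35.8 FPKM against 11.5 to 20.4, and Dnase2a at 31.4 against 5.47 to 15.7. These 2 mice had the highest macrophage scores of SZ-A, and the part of this in the values was not tested. Marco in SZ-A replicate 1 was at 3.35 FPKM against 0.508 to 1.18, and Mrc1 in HFD replicate 1 at 109 against 50.7 to 73.6.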

How the results depend on the processing

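Of the 246 values of the counts (9 counts under 27 or 28 alternatives each), 214 stayed within 1.5 times, as did those under other pseudocounts, filters, scalings and voom. For the log2 fold changes of single genes, 650 values kept direction and side of the threshold, 33 lost and 20 gained the call, and 32 changed sign. Where a cause is not given, the cause was not tested.

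With the macrophage score as covariate, the genes called were 4, 3 and 0 of the 9 in HFD against NC, SZ-A against HFD and SZ-A against NC (7, 6 and 2 without it); of the 4, Gas6 and Pros1 were lower. Past both limits were 1 in SZ-A against HFD and 0 in SZ-A against NC, and 21, 8 and 1 of the 67 pathway genes were called, 13, 7 and 1 of them lower. Signs changed in HFD against NC for Mertk (-0.77), Axl (-1.60), Gas6 (-1.95), Pros1 (-1.89), Marco (-0.27) and Scara5 (-2.77), where Mfge8 was at 6.77. In SZ-A against HFD the sign changed for Mertk (0.20). In SZ-A against NC it changed for Mertk (-0.66), Axl (-0.59), Gas6 (-0.27), Pros1 (-0.51) and Scara5 (-0.998). The scores of NC (1.77 to 4.23) overlapped with neither those of HFD (6.37 to 7.45) nor those of SZ-A (4.98 to 6.61). Group and score can therefore hardly be separated in the fits with NC.

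With the fibroblast score, chosen after seeing the data, 4 of the 9 were called in HFD against NC. Of these, 3 were higher and past both limits, and 1, Scara5, was lower. In SZ-A against HFD 0 were called by either rule, with 0 pathway genes by limma (an unadjusted p under 0.05 in 3 of the 9 and 25 of the 67). Signs changed in HFD against NC for Mertk (-0.045), Gas6 (-0.48), Pros1 (-0.14), Marco (-0.058) and Scara5 (-1.02), in SZ-A against HFD for Gas6 (0.15), Mfge8 (0.37) and Marco (-0.069), and in SZ-A against NC for Gas6 (-0.069) and Scara5 (-0.56). With the epididymis score, which rests on 2 genes, 3 of the 9 were called in HFD against NC, 3 past both limits. Past both limits were 0 in SZ-A against HFD and 1 in SZ-A against NC. In HFD against NC 21 pathway genes were called, and Mfge8 was at -1.12. Neither the fibroblast nor the epididymis scores of NC and HFD overlapped, so the group and these scores can hardly be separated there.

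With all 3 groups in the fit, 2 of the 9 were called in SZ-A against HFD and 4 in SZ-A against NC; leaving NC replicate 6 out of that fit, chosen after seeing the data, gave 6 and 5. Array quality weights gave 5 of the 9 and 26 pathway genes in SZ-A against NC. Mfge8 in SZ-A against HFD was 0.0057 under median-ratio scaling. Correlations of same-numbered mice ran from -0.41 to 0.59. They were not compared with those of differently numbered mice, so they do not settle whether the numbers pair the mice. With the replicate block, 6, 6 and 1 of the 9 were called in the 3 comparisons, 5, 2 and 1 past both limits, and 42, 32 and 7 pathway genes.

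Leaving out 1 mouse at a time, the genes called ranged from 6 to 7 in HFD against NC, 6 to 7 in SZ-A against HFD and 2 to 4 in SZ-A against NC. Those past both limits ranged from 4 to 6, 1 to 2 and 1 to 3, and the pathway genes from 43 to 49, 33 to 39 and 12 to 19. Mfge8 in SZ-A against HFD ranged from -0.097 to 0.056. Depth limits Marco, with 1 to 118 reads per mouse.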

Other observations

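Other marker lists moved less evenly than the macrophage list. Of 12 genes of lipid-associated macrophages, the cells that gather lipid in obese fat, 10 rose in HFD against NC and 9 fell in SZ-A against HFD; the score ranged from 2.70 to 4.52 in NC, from 7.58 to 8.85 in HFD and from 6.10 to 7.71 after SZ-A. This list shares Trem2, Lipa and Cd36 with the pathway list. Of 7 genes of resident macrophages, 3 rose in HFD and 3 fell with SZ-A, with scores of 4.06 to 4.63 in HFD and 3.18 to 4.11 after SZ-A; SZ-A replicate 5, highest of its group in the macrophage score, had 3.57 here. Of 12 adipocyte genes, 1 rose and 3 fell in HFD, and 4 rose with SZ-A.

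Smooth muscle genes fell in HFD in 4 of 8 cases, and 1 of 8 rose with SZ-A. The 3 mesothelial genes gave scores of 4.66 and 4.58 in SZ-A replicates 2 and 7 against 0.203 to 3.57 in the other SZ-A mice. Of the 18 epididymis markers 2 were in the table, and 1 of them fell in HFD; Aqp9 ranged from 0.406 to 51.4 FPKM in NC and from 0.311 to 0.612 in HFD. All 5 red blood cell genes rose with SZ-A against HFD. With SZ-A against HFD, 1 of 8 endothelial genes rose and 1 of 8 T cell genes fell. B cell genes rose in 1 of 4 cases in HFD and fell in 2 with SZ-A, and of 3 neutrophil genes 2 rose and 1 fell in HFD and 1 rose with SZ-A.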
